A study of Mus musculus with 44 samples.

Results

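The clustered protocadherins were followed in RNA sequenced from 28 mouse brains, described as whole. Members were all protein-coding genes of the GENCODE M21 annotation (genome GRCm38) with the symbols Pcdha, Pcdhb, Pcdhga or Pcdhgb and a number, together with the C-type genes Pcdhac1, Pcdhac2, Pcdhgc3, Pcdhgc4 and Pcdhgc5, found in the counts by their Ensembl identifiers. Of 58 genes with such symbols 1, Pcdhgb8, is annotated as a polymorphic pseudogene and was left out. The rule gave 57 of the 54446 genes in the table, with 14 in the alpha, 22 in the beta and 21 in the gamma cluster. All 57 lie on the plus strand of chromosome 18, the alpha cluster from 36930184 to 37187661, the beta cluster from 37264938 to 37524479 and the gamma cluster from 37661793 to 37841873. The brains came from male C57BL/6 mice in 4 groups. The 26-month KD group (n = 8) received a cyclic ketogenic diet (KD), in which KD and a control diet (CD) alternated weekly from 12 months of age, and its brains were collected in a week of CD. The 26-month CD group (n = 8) received CD over the same period. The 12-month KD group (n = 7) had free access to KD for one week, and the 12-month CD group (n = 5) received CD. The labels number the brains without naming a mouse, day or batch, so p-values measure the spread between these samples.

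Clustered protocadherins are cadherin-like adhesion proteins of the neuronal surface. Each variable exon has its own promoter, and a neuron uses only some of them, a choice that involves CTCF, cohesin and DNA methylation. The combinations that result bind like to like between membranes, and through this recognition the branches of a neuron tell themselves from those of its neighbours. In the alpha and gamma clusters each variable exon is spliced to constant exons shared by the whole cluster, whereas each beta gene is a protein of its own without a constant part. The C-type genes at the ends of the alpha and gamma clusters are used more regularly than the others and have separate roles, among them the spacing of serotonergic axons (Pcdhac2) and the survival of neurons (Pcdhgc4).

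Total counts ranged from 7447742 to 12744415 per brain, and the members took 0.1001% to 0.148% of them. Reads that fall on more than one gene were left out of the counts, whatever the strand. Of 145 genes with no exon base of their own on their strand, 142 had no count in any brain. Of 152 genes with at least 500 own bases on their strand but none over both strands, 147 had no count. Among genes with at least 500 own bases over both strands this held for 1280 of 38668. Alpha and gamma counts therefore came from the variable exons, not from the shared constant ones. Pcdhga10 is covered on the opposite strand by another gene, has 0 bases of its own and 0 counts, and was not tested. The other 56 members passed the filter on low counts. The symbol Pcdha11 belongs to 2 identifiers, of which ENSMUSG00000007440 starts where RefSeq places Pcdha10. Levels are in CPM (counts scaled to the library size with TMM factors), and per kilobase (kb) of exon that no other gene covers where genes are compared. Marker genes of the brain were present, with Snap25, a presynaptic protein, at 1295 to 1872 CPM, while albumin (Alb), made by the liver, stayed at 0 to 22.96 CPM. Markers of the cerebellum divided the brains into 15 with 337 to 1708 CPM and 13 with 12.7 to 87.1 CPM, both kinds in every group, and results that move with them are given with those markers. The sources used here do not say whether cerebellum was present in all brains, so a value of the 13 may stand for less of the brain than one of the 15.

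Gamma members had the highest levels per kb. Their means over the 28 brains ran from 3.47 to 16.5 CPM per kb with a median of 11.6, against 0.307 to 7.53 with a median of 3.65 in the beta cluster and 1.41 to 12.5 with a median of 3.65 in the alpha cluster. The C-type member Pcdhac2 was the highest alpha gene at 12.5 ± 1.39 CPM per kb (SD, n = 28). The next alpha genes were close to each other, Pcdha12 at 4.47 ± 0.79 and the Pcdha11 of ENSMUSG00000007440 at 4.31 ± 0.64 CPM per kb, within 1 SD of each other. Pcdha1, at the start of the cluster, was the lowest at 1.41 ± 0.35 CPM per kb. In the beta cluster Pcdhb16 reached 7.53 ± 0.65, Pcdhb9 6.95 ± 1.36 and Pcdhb17 6.89 ± 0.63 CPM per kb, an order that does not exceed the spread between brains. Pcdhb1 was far below them at 0.307 ± 0.153 CPM per kb, with 1 to 18 counts in a brain. The highest gamma members, Pcdhga8 (16.5 ± 2.75), Pcdhgc3 (16.5 ± 3.49) and Pcdhgc5 (15.7 ± 4.30 CPM per kb), were not separated by their spread, and Pcdhga1 was the lowest at 3.47 ± 0.62. The remaining C-type members were at 7.00 ± 1.20 (Pcdhgc4) and 4.05 ± 0.55 CPM per kb (Pcdhac1). Pcdha4 rests on 404 bases of its own, and up to 25.45% of the 50-base stretches of an alpha gene (Pcdha7) also occur in another gene, so that part of its reads could have been lost.

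**Figure D1:**
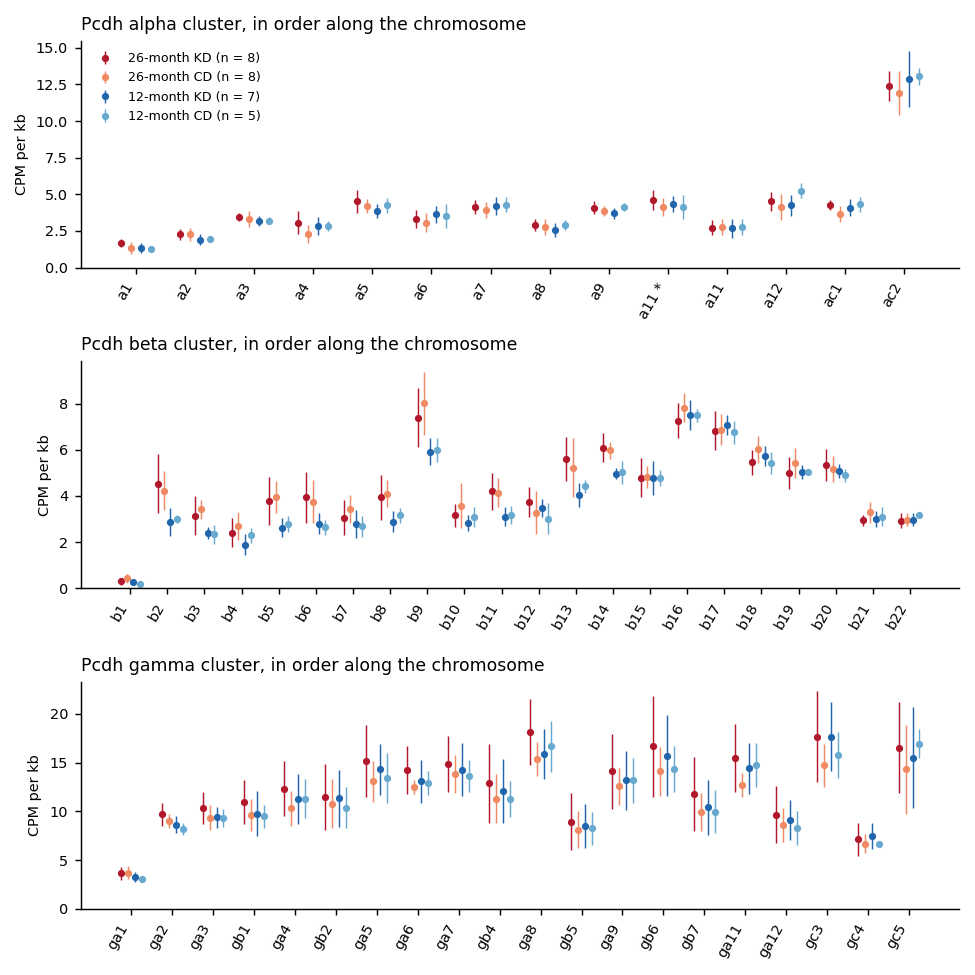
Level of each of the 56 members with counts in CPM per kb, as mean (point) and SD (bar) of the brains of a group, in order along the chromosome. The symbols are shortened (a1 is Pcdha1) and a11 * is the Pcdha11 of ENSMUSG00000007440. Pcdhac2 stands above all other alpha genes, the 26-month groups lie above the 12-month groups for most genes from b2 to b14, and the bars of the gamma genes overlap in all groups.

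Summed over a cluster, the alpha genes gave 135 ± 8.17 CPM in 26-month KD, 126 ± 9.69 in 26-month CD, 129 ± 5.94 in 12-month KD and 135 ± 5.82 CPM in 12-month CD brains. The beta genes summed to 411 ± 54.1 CPM in 26-month KD, 424 ± 40.8 in 26-month CD, 366 ± 18.5 in 12-month KD and 368 ± 13.001 CPM in 12-month CD brains. The gamma genes summed to 687 ± 127, 606 ± 61.4, 644 ± 97.0 and 625 ± 73.7 CPM in the same order of groups. The mean beta sums of the 26-month groups lay above those of the 12-month groups by about the SD of the older brains. Single brains overlapped between the ages in the alpha, beta and gamma sums alike. The beta sum ran from 330 to 481 CPM in 26-month KD and 351 to 469 CPM in 26-month CD brains. At 12 months it ran from 333 to 383 CPM in KD and 347 to 379 CPM in CD brains. The median coefficient of variation within a group was 15.6% for alpha, 17.5% for beta and 20.4% for gamma members, of which counting error alone would give 10.6%, 8.41% and 5.40%.

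Aging was first examined in CD brains, at 26 against 12 months. No member was called at an adjusted p under 0.05 by edgeR's quasi-likelihood test, where 1.26% of the 22079 genes tested were called, and no member passed an absolute log2 fold change of 1 with a call. DESeq2 called 3 members and limma 2, where they called 499 and 401 of the 22079 genes. Without the 26-month CD replicate 5 edgeR called 1 member and 202 of 21850 genes. Without the 26-month KD replicate 14 it called 2 members and 322 of 21898 genes. At an unadjusted p under 0.05, 11 members were higher at 26 months, 10 of them beta genes, against 7.81% of all genes, and 2 members were lower, against 4.02%. Of the beta members, 21 of 22 had a log2 fold change above 0 and their median was 0.24, while the median was -0.08 for alpha, -0.01 for gamma and -0.002 for all genes.

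The beta gene with the smallest p in CD brains, Pcdhb14, had 47.2, 52.3 and 56.2 CPM (lowest, median, highest) at 26 months, against 36.9, 41.7, 45.5, 46.4 and 47.9 CPM in the 5 brains at 12 months. The groups touched only at their edges, and the log2 fold change was 0.25 ± 0.07 (SE) with an adjusted p of 0.0753 in edgeR. Pcdhb9 had 17.7, 25.5 and 30.1 CPM at 26 months, against 16.7, 16.7, 18.5, 19.2 and 20.3 CPM at 12 months, a log2 fold change of 0.42 ± 0.12 with an adjusted p of 0.0813. Without the 26-month CD replicate 5 its adjusted p was 0.0332, and without the 26-month KD replicate 14 it was 0.0463, within 0.0026 to 0.337 over all the alternatives. The alpha genes with the smallest p went the other way in these CD brains. Pcdha12 had 5.56, 8.02 and 11.04 CPM at 26 months, against 8.63, 9.81, 10.7, 10.9 and 10.9 CPM at 12 months (log2 fold change -0.34 ± 0.14, adjusted p 0.278). Pcdhac1, the first C-type gene of the cluster, had 7.23, 8.94 and 11.8 CPM at 26 months, against 8.998, 10.9, 10.9, 11.98 and 12.5 CPM at 12 months (log2 fold change -0.24 ± 0.11, adjusted p 0.349). The gamma genes with the smallest p were the first of their cluster, Pcdhga1 at 0.29 ± 0.13 (adjusted p 0.397) and Pcdhga2 at 0.13 ± 0.08 (adjusted p 0.573). Pcdhga1 had 8.10, 10.4 and 14.6 CPM at 26 months, against 8.21, 8.32, 8.44, 8.998 and 9.33 CPM at 12 months. Pcdhga2 had 20.3, 23.8 and 25.6 CPM at 26 months, against 19.5, 19.7, 21.2, 22.2 and 23.1 CPM at 12 months, and the ranges of these 4 alpha and gamma genes overlapped.

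The same age difference was then read in KD brains and over both diets. Both contrasts were added after the values had been seen. The KD brains differ in regimen as well as in age, since the 26-month mice had cycled for one year and the 12-month mice had eaten KD for one week. In KD brains 2 members were called at 26 against 12 months, Pcdhb2 and Pcdhb14, where 0.743% of all genes were called. Pcdhb2 had 8.30, 13.2 and 18.01 CPM in 26-month KD brains, against 5.89, 8.61 and 10.3 CPM in 12-month KD brains, and its log2 fold change was 0.66 ± 0.16 with an adjusted p of 0.0428. Pcdhb14 had 44.7, 52.9 and 60.2 CPM in 26-month KD brains, against 39.5, 43.7 and 45.6 CPM in 12-month KD brains, and its log2 fold change was 0.30 ± 0.06 with an adjusted p of 0.0175. For Pcdhb14 a single 26-month KD brain fell within the range of the 12-month brains, while for Pcdhb2 several did. Neither call held when the KD groups were fitted alone (adjusted p 0.184 for Pcdhb2 and 0.0527 for Pcdhb14) or with the receptor genes described further on as a covariate (0.177 and 0.201). The call of Pcdhb14 was lost without the 12-month KD replicate 17 (0.0525). The call of Pcdhb2 was lost, at an adjusted p of up to 0.119, on leaving out any of the 12-month KD replicates 2, 5, 10, 11, 14 and 17, the 26-month CD replicates 4 and 7 and the 26-month KD replicates 9, 10, 12 and 15 or the brain with the highest number in that group.

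Over both diets, weighted equally, 9 members rose at 26 months by edgeR's test, all of them beta genes, where 3.68% of all genes were called in either direction. DESeq2 and limma also called 9. No alpha or gamma member was called. Of the 14 alpha members 11 had log2 fold changes above 0 in KD brains, with a median of 0.10. Over both diets 7 did, with a median of 0.01, against 4 in CD brains. Pcdhb14 had the smallest p of the members over both diets. Its 16 brains at 26 months ran from 44.7 through a median of 52.3 to 60.2 CPM, against 36.9, 44.1 and 47.9 CPM in the 12 brains at 12 months. All 16 older brains lay above the median of the younger ones and 13 above the highest of them, and the log2 fold change was 0.27 ± 0.05 (adjusted p 0.000574). Pcdhb2 had 8.30, 12.2 and 18.01 CPM at 26 months, against 5.89, 8.44 and 10.3 CPM at 12 months, and the largest log2 fold change of the called members at 0.58 ± 0.12 (adjusted p 0.00354). Pcdhb3 had 6.20, 13.5 and 15.6 CPM at 26 months, against 6.68, 9.09 and 10.4 CPM at 12 months (0.48 ± 0.11, adjusted p 0.00726). Pcdhb5 had 7.75, 14.9 and 17.9 CPM at 26 months, against 7.04, 9.45 and 11.6 CPM at 12 months (0.52 ± 0.11, adjusted p 0.00608). For these 3 genes 11 or 12 of the 16 older brains exceeded every younger one. The lowest older brain fell among the younger for Pcdhb2 and Pcdhb5 and below all of them for Pcdhb3.

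Pcdhb6 had 9.49, 13.8 and 20.7 CPM at 26 months, against 8.38, 10.1 and 13.3 CPM at 12 months (log2 fold change 0.50 ± 0.12, adjusted p 0.0170). Pcdhb8 had 9.51, 13.8 and 18.8 CPM at 26 months, against 7.62, 10.4 and 12.8 CPM at 12 months (0.41 ± 0.10, adjusted p 0.0143). Pcdhb9 had 16.4, 22.2 and 30.1 CPM at 26 months, against 15.9, 18.6 and 20.6 CPM at 12 months (0.37 ± 0.08, adjusted p 0.00557). The older brains again reached above the younger ones at the top and overlapped with them at the bottom, with 10, 10 and 13 of 16 beyond the highest younger brain. Pcdhb11 had 12.0, 18.1 and 23.7 CPM at 26 months, against 11.4, 13.8 and 16.4 CPM at 12 months (0.41 ± 0.09, adjusted p 0.00500). Pcdhb13 had 10.7, 20.5 and 24.8 CPM at 26 months, against 12.4, 15.5 and 18.5 CPM at 12 months (0.36 ± 0.10, adjusted p 0.0357). In both, 12 of 16 older brains exceeded the highest younger one. The call of Pcdhb13 was the least steady, being lost, at an adjusted p of up to 0.064, on leaving out any of the 26-month KD replicates 10, 12 and 15, the 26-month CD replicates 3, 4 and 7, the 12-month KD replicates 2, 8, 10 and 14 and the 12-month CD replicates 1, 4, 7 and 16. The other 8 stayed under an adjusted p of 0.05 in all 28 fits that left out a brain.

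**Figure D2:**
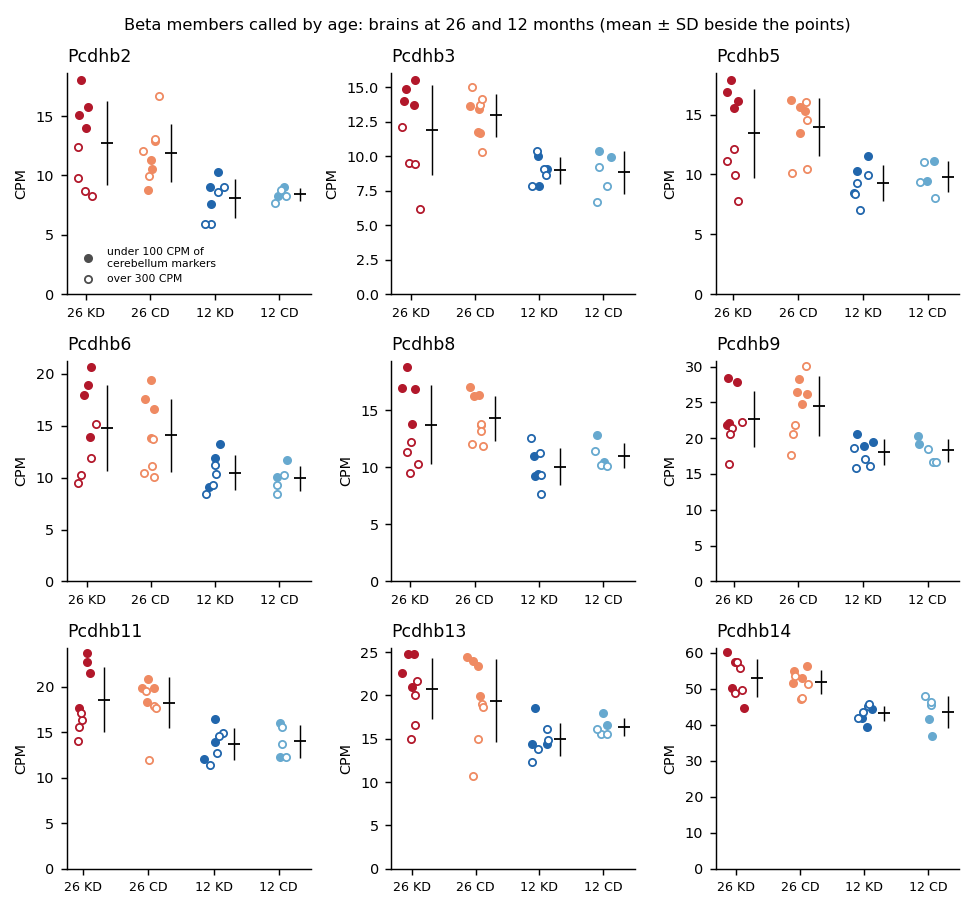
CPM of the 9 beta members called over both diets, 1 point per brain, with the mean and SD of each group beside the points. Filled points are brains under 100 CPM of summed cerebellum markers and open points those over 300 CPM. Most 26-month brains lie above the 12-month ones, and for Pcdhb8 the filled points of the 26-month KD brains, at 13.8 CPM and above, lie above the open ones of that group.

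Along the beta cluster the age difference lay in the first genes. The 14 genes from Pcdhb1 to Pcdhb14 all had log2 fold changes above 0 in CD brains, in KD brains and over both diets, with medians of 0.38, 0.38 and 0.39, and all 9 calls were among them. The 8 genes from Pcdhb15 to Pcdhb22 had medians of 0.07, -0.03 and 0.02, and none was called. Pcdhb16 and Pcdhb17, among the most abundant beta genes, had 29.6, 39.8 and 46.6 CPM and 24.6, 31.9 and 36.7 CPM at 26 months, against 34.3, 39.1 and 43.5 CPM and 27.7, 33.3 and 34.8 CPM at 12 months. This division was noticed in the values and is a description. The ranges of level overlapped (0.307 to 6.95 against 2.99 to 7.53 CPM per kb), but most genes of the first stretch were lower. Only Pcdhb9, Pcdhb13 and Pcdhb14 of it exceeded the 4.79 CPM per kb of Pcdhb15, which all of the second but Pcdhb21 and Pcdhb22 reached. The coefficient of variation within a group was 8.2% to 45.1% against 8.6% to 13.7%. The share of sequence found in other genes also overlapped (0 to 9.52% against 1.89 to 5.47%). The part of level in the division was not tested. In the first stretch Pcdhb1, Pcdhb4, Pcdhb7, Pcdhb10 and Pcdhb12 were not called, with log2 fold changes over both diets from 0.11 to 0.57. Pcdhb1, at few counts, had a log2 fold change of 1.03 ± 0.38 in CD brains (adjusted p 0.226).

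**Figure D3:**
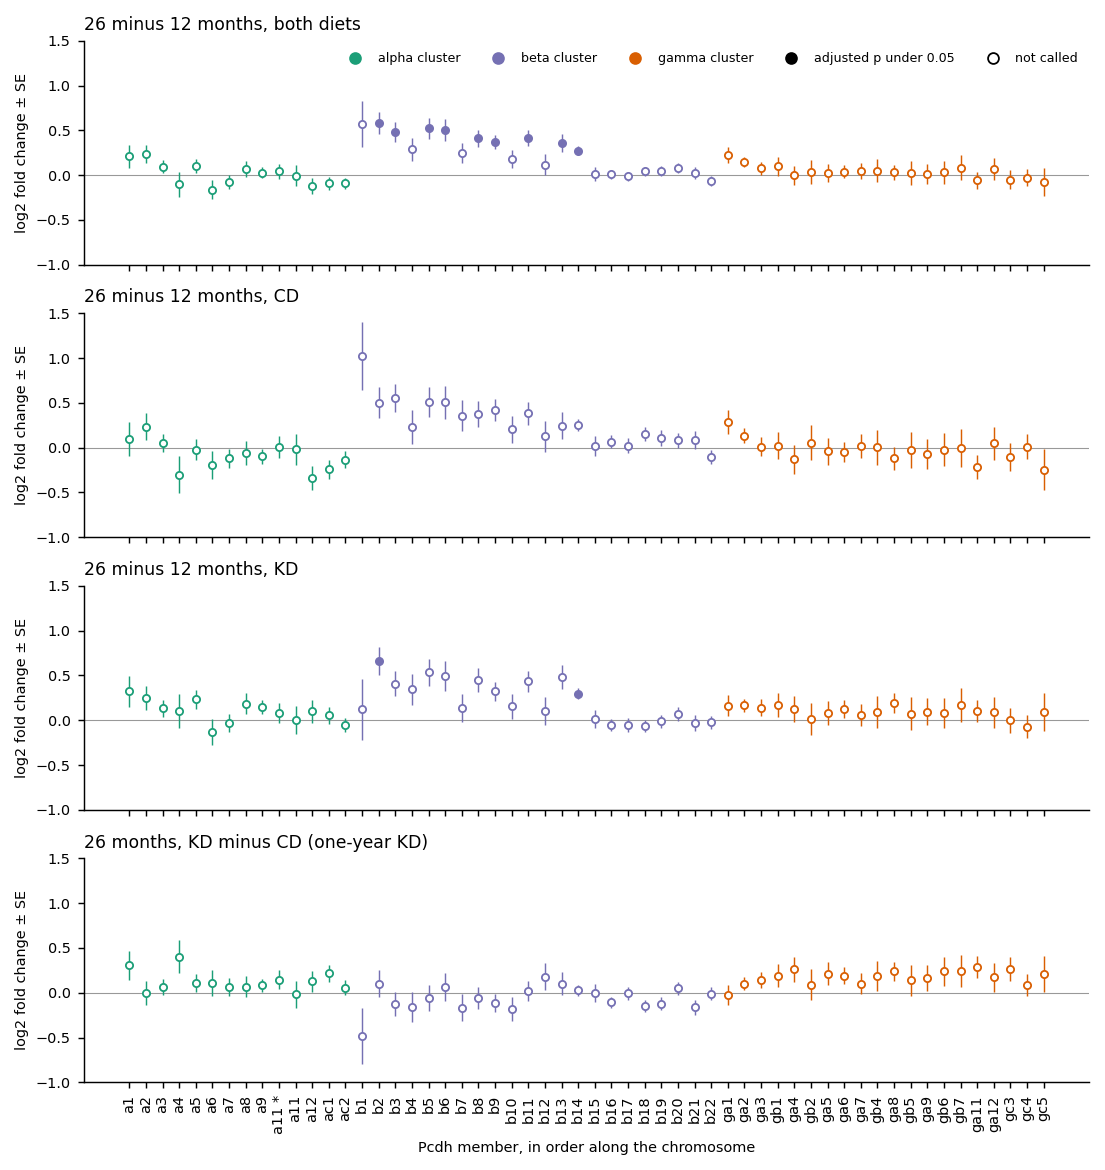
Log2 fold change of each tested member with its SE, in order along the chromosome, for 26 minus 12 months over both diets, in CD and in KD brains, and for KD minus CD at 26 months. Filled points have an adjusted p under 0.05. The filled points are beta genes between b2 and b14 only, 9 over both diets and 2 in KD brains, and no member is filled in the other panels.

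Other measures differed between the ages too. Of all counts, 0.0347% to 1.219% fell on the predicted gene Gm10800 at 26 months, against 0.0004617% to 0.001701% at 12 months, without overlap, so that age and this signal cannot be told apart. Olfactory, vomeronasal and taste receptor genes, which the brain hardly uses, summed to 215 to 1347 CPM at 26 months, against 182 to 235 CPM at 12 months. Per kb this was 0.0364 to 0.228 CPM in 26-month brains, against 0.0308 to 0.0398 CPM in 12-month brains. The group means of Pcdhb2 were 4.53 and 4.23 CPM per kb in 26-month KD and CD brains, against 2.87 and 2.99 CPM per kb in 12-month KD and CD brains, beside group means of the receptor genes of 0.0937 and 0.0855 CPM per kb in 26-month KD and CD brains, against 0.0339 and 0.0371 CPM per kb in 12-month KD and CD brains. Pcdhb1 was at 0.198 to 0.42 CPM per kb by group. The part of the receptor signal in the beta values was not tested. With the receptor genes of each brain as a covariate 1.18% of all genes were called, against 3.68% without it, and 4 of the 9 members stayed called (Pcdhb2, Pcdhb3, Pcdhb11 and Pcdhb14). Without the 2 brains highest in receptor genes 9 members were called.

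Marker lists of cell types moved with age as well. Over both diets 6 of 10 microglial markers rose at 26 months, summing to 270.1 to 428.5 CPM in 26-month KD and 337.7 to 414.5 in 26-month CD brains, against 238.7 to 328.1 in 12-month KD and 256.5 to 311.5 CPM in 12-month CD brains. Of 10 oligodendrocyte markers 3 rose, with sums of 3710 to 5914 CPM in 26-month KD and 4013 to 6095 CPM in 26-month CD brains, against 3046 to 5259 CPM in 12-month KD and 2944 to 4559 CPM in 12-month CD brains. Of 9 markers of meningeal fibroblasts 7 fell, with sums of 34.7 to 88.3 CPM in 26-month KD and 31.9 to 64.8 CPM in 26-month CD brains, against 84.9 to 133 CPM in 12-month KD and 78.2 to 167.7 CPM in 12-month CD brains. Among 10 astrocyte markers 1 rose, among 10 endothelial markers 1 rose and 2 fell, among 5 markers of oligodendrocyte precursors 1 fell and among 13 hindbrain Hox genes 1 fell. Of the 12 neuronal markers none was called, and none of the markers of inhibitory interneurons, serotonergic neurons, choroid plexus, ependyma, cerebellum, cortex and hippocampus or striatum. Apart from 1 Hox gene, no marker of these lists had a mean under 0.1 CPM. The part of these cells in the beta values was not tested, and in bulk RNA fewer cells of a type and less RNA per cell cannot be told apart.

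The levels of the members moved with the cerebellum markers, and what set those markers was not tested. In the 15 brains over 300 CPM of cerebellum markers, which include those of Purkinje and granule cells, the gamma sum was 559 to 925 CPM with a median of 691, against 525.7 to 638 CPM with a median of 563 in the 13 brains under 100 CPM. The beta sum was 330 to 427 CPM with a median of 367 in those 15 brains, against 368 to 481 CPM with a median of 433 in the other 13. All 22 beta members had a lower median in the brains rich in cerebellum markers, and 17 of the 20 gamma members a higher one. The largest ratio of medians was 1.56 for Pcdhgb2, with 36.5 against 23.4 CPM. Pcdhgb4 had 38.8 to 76.9 CPM in the brains rich in cerebellum markers, against 29.9 to 37.3 CPM in the others. How many of all genes differ in this way between the sets was not counted, so these counts and ranges are descriptions. The gamma genes that went the other way were Pcdhga1, Pcdhga2 and the C-type Pcdhgc5, whose median was 58.9 against 87.3 CPM. The sets were chosen by markers after the data had been seen and hold similar numbers of each group, with 4 and 4 of the 26-month KD, 4 and 4 of the 26-month CD, 4 and 3 of the 12-month KD and 3 and 2 of the 12-month CD brains.

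**Figure D4:**
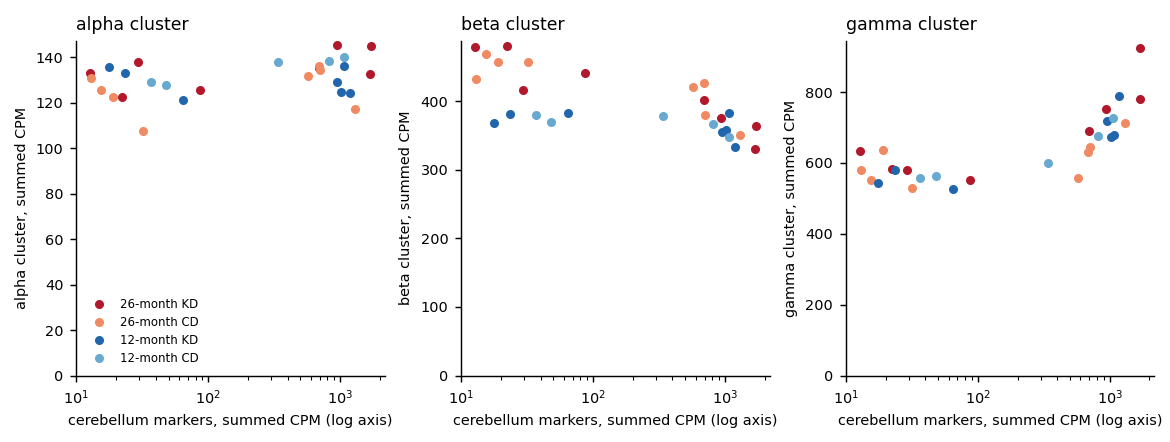
Summed CPM of the alpha, beta and gamma cluster against the summed CPM of the cerebellum markers (log axis), 1 point per brain, coloured by group. The brains fall into a set of 13 under 100 CPM and a set of 15 over 300 CPM; the beta sum of 26-month brains lies above that of 12-month brains in the set under 100 CPM, and the gamma sum is highest, up to 925 CPM, in the set over 300 CPM.

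The age difference of the beta genes was read within these sets. Among the brains under 100 CPM the beta sum was 417 to 481 CPM in 8 brains at 26 months, against 368 to 382 CPM in 5 brains at 12 months, without overlap. Among the brains over 300 CPM it was 330 to 427 CPM in 8 brains at 26 months, against 333 to 383 CPM in 7 brains at 12 months, with overlap. In a single fit with a term for each set, 6 members rose with age in the brains under 100 CPM, Pcdhb5, Pcdhb6, Pcdhb8, Pcdhb11, Pcdhb13 and Pcdhb14, with log2 fold changes from 0.40 to 0.64 and a median of 0.33 over the 22 beta genes, where 0.525% of all genes were called. In those over 300 CPM 1 member, Pcdhb2, rose (0.53 ± 0.12, adjusted p 0.0244), and the median of the beta genes was 0.04, where 1.9% of all genes were called, so that 1 of 56 members is near the background. The difference of the age effects between the sets was above 0 for 22 of 22 beta genes with a median of 0.23, but no gene at all was called for it. The unadjusted count was 894 of 22079 genes with 7 members among them, and the smallest adjusted p of a member was 0.9999. With each set fitted alone 8 of the 9 members were called in the brains under 100 CPM, where 0.595% of all genes were called, and none in those over 300 CPM, where 0.776% were. With the cerebellum markers as a covariate over all brains the same 9 members were called as without it.

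The one-week KD was compared with CD at 12 months. No member was called by edgeR, DESeq2 or limma, where edgeR called 0.00453% of all genes, and 1 member, Pcdha12, had an unadjusted p under 0.05, against 2.65% of all genes. Pcdha12 had 6.37, 8.01 and 10.1 CPM in KD brains, against 8.63, 9.81, 10.7, 10.9 and 10.9 CPM in CD brains, with overlap (log2 fold change -0.31 ± 0.14, adjusted p 1 in edgeR). Pcdha9 had 7.59, 9.07 and 10.5 CPM in KD brains, against 9.60, 9.66, 10.4, 10.6 and 11.04 CPM in CD brains (-0.16 ± 0.09). The beta genes with the smallest p were Pcdhb4, at 5.02, 6.55 and 9.62 CPM in KD brains against 6.68, 8.38, 8.43, 8.91 and 10.1 CPM in CD brains (-0.27 ± 0.19), and Pcdhb22 (-0.09 ± 0.08), at 15.6, 18.5 and 20.3 CPM in KD brains against 18.8, 18.8, 20.03, 20.03 and 20.2 CPM in CD brains. In all 4 genes the KD brains reached lower than any CD brain and the ranges overlapped. In the gamma cluster the smallest p belonged to C-type genes. Pcdhgc4 had 18.9, 27.0 and 30.4 CPM in KD brains, against 22.8, 22.8, 22.9, 23.0 and 24.2 CPM in CD brains (0.17 ± 0.14). Pcdhgc3 had 25.3, 33.8 and 40.6 CPM in KD brains, against 25.1, 25.7, 26.3, 33.0 and 33.8 CPM in CD brains (0.16 ± 0.16). In the brains under 100 CPM of cerebellum markers alone the log2 fold change was -0.08 for Pcdhgc4 and -0.0002 for Pcdhgc3, with neither called. The median log2 fold change was -0.02 for alpha, -0.01 for beta and 0.07 for gamma members, and 17 of 20 gamma members were above 0. The 6 cerebellum markers had a median of 0.45 in the same comparison, with none called, and their part was not tested.

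The one-year cyclic KD was compared with CD at 26 months. No member was called by edgeR, DESeq2 or limma, and no gene of the whole table was called by edgeR (0%). At an unadjusted p under 0.05 edgeR gave 4 members, 3 higher and 1 lower, against 4.52% of all genes. The gamma gene Pcdhga11 had 14.3, 18.7 and 26.0 CPM in KD brains, against 13.7, 16.0 and 17.95 CPM in CD brains (log2 fold change 0.29 ± 0.12, adjusted p 0.989). Pcdhga8 had 27.5, 36.8 and 47.0 CPM in KD brains, against 28.0, 31.5 and 39.6 CPM in CD brains (0.24 ± 0.11). Pcdhac1 had 9.98, 10.8 and 12.3 CPM in KD brains, against 7.23, 8.94 and 11.8 CPM in CD brains (0.22 ± 0.09). In each of the 3 the KD brains had the higher median and the ranges overlapped. Pcdhb18 had 23.7, 28.0 and 31.6 CPM in KD brains, against 26.3, 30.2 and 36.0 CPM in CD brains (-0.14 ± 0.07). Of the remaining genes with the smallest p, Pcdha4 had 0.947, 1.13 and 1.83 CPM in KD brains, against 0.483, 0.970 and 1.25 CPM in CD brains (0.40 ± 0.18). Pcdhb21 had 11.04, 12.4 and 13.9 CPM in KD brains, against 11.8, 14.05 and 17.4 CPM in CD brains (-0.16 ± 0.09). Of the gamma members 19 of 20 had log2 fold changes above 0 with a median of 0.19, as had 12 of 14 alpha members with a median of 0.10, while the beta median was -0.06 and that of all genes -0.003. The gamma members varied together from brain to brain. The 6 cerebellum markers had a median log2 fold change of 0.58 in the same comparison, all above 0 and none called, and their part in the gamma values was not tested.

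The effect of the one-year KD less that of the one-week KD was called for no member by edgeR, DESeq2 or limma and for no gene by edgeR (0%). By edgeR 4 members had an unadjusted p under 0.05, against 4.52% of all genes. They were Pcdha12 (difference of log2 fold changes 0.44 ± 0.18), Pcdha9 (0.25 ± 0.12), Pcdhac1 (0.30 ± 0.14) and Pcdhb18 (-0.22 ± 0.10). For Pcdha12 the one-year effect was 0.13 ± 0.12 beside the one-week effect of -0.31 ± 0.14 given above. The other genes with the smallest p of their clusters were Pcdhb1 (-0.91 ± 0.51), Pcdhga8 (0.31 ± 0.17) and Pcdhga11 (0.32 ± 0.19), all with an adjusted p of 0.9999. All 14 alpha members had a difference above 0, with a median of 0.16. The comparisons of aging in CD brains and of the one-year KD share the 26-month CD brains, which enter with opposite signs. For Pcdhac1 the log2 fold change was -0.24 in aging and 0.22 after the one-year KD, for Pcdhga11 -0.21 and 0.29, and for Pcdhb14 0.25 and 0.03.

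The C-type members varied more between brains than between groups. Pcdhgc5 was the most abundant member in CPM, with 76.1 ± 21.6 CPM in 26-month KD, 65.9 ± 21.0 in 26-month CD, 71.5 ± 24.0 in 12-month KD and 78.1 ± 6.83 CPM in 12-month CD brains. Pcdhgc3, known to act on dendrite branching and Wnt signalling, had 32.2 ± 8.45 CPM in 26-month KD, 26.8 ± 4.02 in 26-month CD, 32.2 ± 6.41 in 12-month KD and 28.8 ± 4.24 CPM in 12-month CD brains. Pcdhgc4 had 24.7 ± 5.82, 23.3 ± 3.27, 26.0 ± 4.52 and 23.1 ± 0.62 CPM in the same groups. Pcdhac2 had 37.5 ± 3.12 CPM in 26-month KD, 36.0 ± 4.52 in 26-month CD, 38.9 ± 5.85 in 12-month KD and 39.5 ± 1.81 CPM in 12-month CD brains, and Pcdhac1 10.9 ± 0.83, 9.35 ± 1.46, 10.5 ± 1.48 and 11.1 ± 1.34 CPM. None was called in any comparison. Over both diets all 5 had log2 fold changes of age between -0.09 and -0.03, and after the one-year KD all 5 lay between 0.06 and 0.26.

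Members were compared across the 28 brains as deviations of log2 CPM from the group mean. These correlations are descriptions, since the values of a point share its library and depth. Pairs of gamma members had a median Pearson r of 0.79, pairs of beta members 0.50 and pairs of alpha members 0.10. The median r was -0.54 between gamma and beta members, 0.21 between alpha and gamma members and -0.16 between alpha and beta members. Leaving out the 2 farthest brains gave medians of 0.715 for gamma pairs, 0.37 for beta pairs and -0.42 between gamma and beta members. Gamma pairs were positive in each group, with medians of 0.84 in 26-month KD, 0.63 in 26-month CD, 0.86 in 12-month KD and 0.74 in 12-month CD brains, while beta pairs had 0.73, 0.53, 0.25 and 0.20. The gamma block held 16 genes, from Pcdhga3 to Pcdhgc3, in which the lowest r of any pair was 0.65 and the highest, between Pcdhga9 and Pcdhgb5, 0.96. The block was set from these correlations, so a high r within it follows in part from that choice. The genes outside it stand at the ends of the cluster: Pcdhga1 (median r with the other gamma members -0.26), Pcdhga2 (0.07), Pcdhgc4 (0.60) and Pcdhgc5 (-0.55). Pcdhgc5 was most like Pcdhac2 (r = 0.77), a C-type gene of the alpha cluster, and least like its neighbour Pcdhgc4 (r = -0.82). Pcdhb14, the member with the smallest p for age, stood apart from the other beta genes with a median r of 0.06, whereas Pcdhb5 had 0.64.

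**Figure D5:**
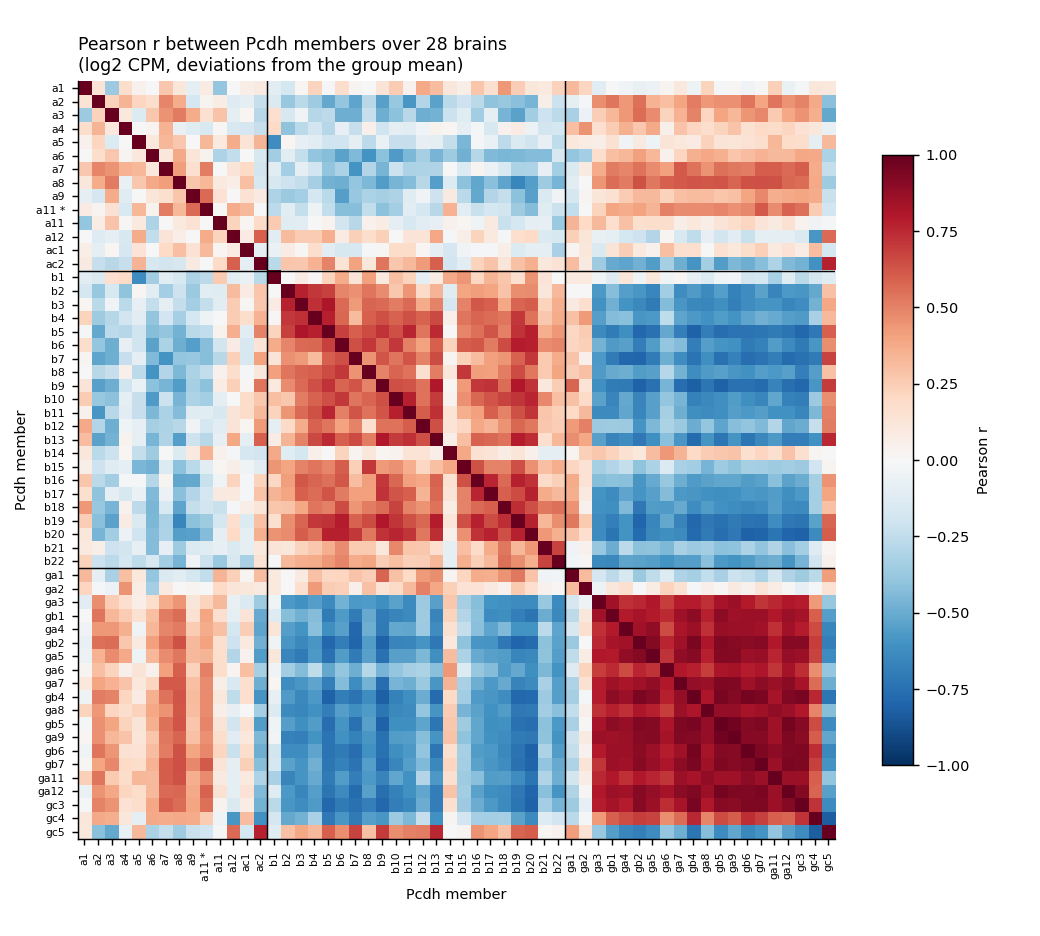
Pearson r between each pair of the 56 tested members over the 28 brains, computed on log2 CPM as deviations from the group mean. Red is positive and blue negative, and lines divide the alpha, beta and gamma clusters. A red block joins most gamma genes (median r 0.79 over all gamma pairs), the gamma and beta genes meet in blue (median -0.54), and b14 and gc5 break the pattern of their clusters.

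The mean deviation of the gamma members ran with several lists across the 28 brains. Its r was 0.93 with the 25 genes of promoter choice and chromatin, 0.86 to 0.99 within the groups and 0.92 without the 2 brains farthest from the median. It was -0.90 with the 11 non-clustered protocadherins, -0.80 with markers of microglia, -0.68 with those of neurons and -0.46 with the total counts of a brain. Without the 2 brains these were -0.885, -0.755, -0.53 and -0.38. Within the groups they ran from -0.973 to -0.82, -0.923 to -0.229, -0.925 to -0.109 and -0.807 to -0.286. With the 25 genes of partners and signalling the r was -0.78. All these values pool the brains over 300 and under 100 CPM of cerebellum markers. The mean of the beta members had an r of -0.78 with that of the gamma members and 0.51 with total counts, and -0.70 and 0.335 without the 2 brains. The cerebellum markers divide the brains into sets, so they were compared with the sums of the clusters within each set, on log2 scales. In the 15 brains over 300 CPM the r was 0.83 for the gamma sum (Spearman 0.81, and 0.87 without the 2 brains farthest from the median) and -0.64 for the beta sum (Spearman -0.74, and -0.86 without the 2 brains). In the 13 brains under 100 CPM it was -0.54 for the gamma sum (Spearman -0.50, and -0.42 without 2 brains) and -0.38 for the beta sum. The lists share the brains, and what each contributes was not tested.

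Of the genes known to act with the clustered protocadherins, 25 of promoter choice and chromatin, 25 of partners and signalling and 11 of the non-clustered protocadherins were tested, and none was called by edgeR in any comparison. In the first list the smallest p in aging belonged to Dnmt3a, a de novo DNA methyltransferase (log2 fold change -0.11 ± 0.06), and Smc3, a subunit of cohesin (-0.17 ± 0.09). After the one-week KD Dnmt1, which maintains DNA methylation, was at 0.10 ± 0.07. After the one-year KD the smallest p belonged to Dnmt1 (0.12 ± 0.06) and Wiz (0.10 ± 0.05), and for the difference of the diet effects the repressor Rest was at -0.27 ± 0.15. The median of this list lay between -0.03 and 0.02 in these 4 comparisons. Among partners and signalling the genes were Nlgn2, a neuroligin of inhibitory synapses (-0.17 ± 0.07), and Pdcd10 (0.165 ± 0.078) in aging, the Wnt co-receptor Lrp5 (0.29 ± 0.14) and the receptor kinase Ret (0.82 ± 0.49) after the one-week KD, the sheddase Adam10 (0.08 ± 0.05) and Cyfip1 of the WAVE complex (-0.07 ± 0.06) after the one-year KD, and Lrp5 (-0.40 ± 0.19) and Wasf2, also of the WAVE complex (-0.16 ± 0.10), for the difference. Among the non-clustered protocadherins they were Pcdh7 (-0.24 ± 0.18) and Pcdh1 (-0.22 ± 0.21) in aging, Pcdh20 (-0.43 ± 0.27) and Pcdh9 (-0.06 ± 0.06) after the one-week KD, Pcdh8 (-0.39 ± 0.21) and Pcdh17 (-0.22 ± 0.15) after the one-year KD, and Pcdh17 (-0.33 ± 0.23) and Pcdh8 (-0.445 ± 0.326) for the difference. Over both diets all 11 non-clustered protocadherins had log2 fold changes of age below 0, with a median of -0.15, beside 20 of 22 beta members above 0. Of 32 protein-coding genes within 500 kb of the clusters 28 were tested. None was called by edgeR in the 4 comparisons of the design. Over both diets 2 of the 28 rose with age, where 3.68% of all genes were called. They were E230025N22Rik (0.88 ± 0.24, adjusted p 0.0327) and the monocyte and microglial receptor Cd14 (0.64 ± 0.17, adjusted p 0.0356), both before the alpha cluster.

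Livers came from 26-month mice on the cyclic KD (n = 8) or CD (n = 8). The members summed to 95.27, 109.75 and 213.5 CPM (lowest, median, highest) in KD livers, against 59.94, 84.84 and 108.6 CPM in CD livers, and to 1029 to 1388 CPM in the 28 brains. The receptor genes were at 0.0224, 0.245 and 0.496 CPM per kb in KD livers, against 0.0244, 0.0325 and 0.344 CPM per kb in CD livers. Their part in the sums of the members, and the difference between the diets, were not tested. Per kb the members were at 0.340 to 1.21 CPM in the livers and 5.83 to 7.87 CPM in the brains. Of the members 29 passed the filter on low counts in the livers. The highest was Pcdhgc3 at a mean of 7.63 CPM or 4.19 CPM per kb, followed by Pcdhgb2 at 2.08 CPM per kb, and the 10 highest per kb were all gamma genes. Both tissues were scaled separately, so these levels are side by side and were not tested.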

How the data were processed

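Total RNA of brains, and of livers used for a comparison of levels, was depleted of ribosomal RNA and made into libraries with the KAPA RNA HyperPrep and QIAseq FastSelect kits. The counts deposited by the authors are whole numbers of reads per Ensembl gene, not normalized, in 1 table of 54446 genes and 44 libraries. The processing notes name Trimmomatic, STAR, RSEM and GRCm38, and their versions are not given in the sources used here. Values without fractions, and counts of 0 at genes fully covered by others, show that reads shared between genes were left out.

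Of the identifiers 54409 were matched to the GENCODE M21 annotation. The 28 brains were fitted together in edgeR 4.0.16 (R 4.3.3) with a term for each group, filterByExpr and TMM, and tested by the quasi-likelihood F test on 22079 genes with Benjamini-Hochberg adjustment over all of them. A call is an adjusted p under 0.05. The study's methods also set an absolute log2 fold change of 1, and no member was called past it. The SE of a log2 fold change was its size divided by the square root of F. Log2 CPM had a prior count of 2. The common biological coefficient of variation was 0.206. The fit was tested on simulated data. Limma 3.58.1, DESeq2 1.42.0, other size factors and filters, robust dispersion, the compared groups alone, covariates, a block on shared library numbers and leaving out each brain were alternatives. All groups come from the labels, and no library or per-sample column was left out.

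The members and the 18 gene lists (3 pathway and 15 marker lists) were chosen with earlier results of these data known. The contrasts of age in KD brains and over both diets, the split by cerebellum markers, the cerebellum and cortex covariates and the fit without the 2 brains highest in receptor genes were added after the values had been seen. Named with full values were the members called in any comparison of the design, the 2 with the smallest p of each cluster and comparison, the C-type members and the 3 highest and the lowest of each cluster. The members called in the added contrasts, and Pcdhb16 and Pcdhb17 by age, were named after their values had been seen. Of the pathway lists the 2 genes with the smallest p per comparison of the design were named, except 1 that is not reported here. Expression per kb used the exon bases covered by no other gene on either strand.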

Additional observations from a re-analysis of the deposited data

Results flagged for a closer look

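Single brains far from the rest of their group were looked for in 17 measures and 68 groups of brains, of which chance alone would mark about 1 in 20, and 3 were found. Pcdhb11 had 11.97 CPM in the 26-month CD replicate 5, against 17.7 to 20.9 CPM in the other 26-month CD brains. The same brain had the highest sum of receptor genes, 1347 CPM. Pcdhgc4 had 24.234 CPM in the 12-month CD replicate 4, against 22.8 to 23.0 CPM in the other 12-month CD brains. Pcdhgc5 had 90.231 CPM in the 12-month CD replicate 16, against 74.1 to 76.2 CPM in the other 12-month CD brains. In the last 2 groups the other 4 brains lay unusually close together, and the value was within the range of the 12-month KD brains. No member had a called difference between the effects of the one-year and the one-week KD.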

How the results depend on the processing

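In both diet comparisons, and for the effect of the longer less that of the shorter regimen, 0 members were called under every alternative and on leaving out any brain. Apart from the fits that left out a brain, these fits called at most 2 genes of the whole table. For aging in CD brains edgeR called 0 members and 278 of 22079 genes. DESeq2 called 3 members beside 499 genes, limma 2 beside 401 and scaling by total counts 2 beside 306. The receptor genes as a covariate gave 1 member beside 167 genes and the hindbrain Hox genes 1 beside 276. The cerebellum markers gave 2 beside 412, and the cortex and hippocampus markers 5 beside 351. The fit minus the 2 brains highest in receptor genes gave 3 beside 243 of 21691 genes. Leaving out a brain gave 0 to 2 members. For age in KD brains edgeR called 2 members and 164 of 22079 genes. DESeq2 called 4 members beside 272 genes and limma 5 beside 239. The KD groups alone gave 0 beside 96 of 20238 genes. The receptor genes as a covariate gave 0 beside 67 and the Hox genes 1 beside 148. The cerebellum markers gave 5 beside 245, and the cortex and hippocampus markers 5 beside 224. The fit minus the 2 brains highest in receptor genes gave 7 beside 205 of 21691 genes. The brains under 100 CPM of cerebellum markers gave 1 beside 18 of 22170 genes and those over 300 CPM 0 beside 34 of 21908. Leaving out a brain gave 0 to 4 members. For age over both diets edgeR called 9 members and 813 of 22079 genes. The receptor genes as a covariate gave 4 members beside 260 genes, and the brains over 300 CPM alone 0 beside 170 of 21908. The other alternatives gave 8 or 9 members, and leaving out a brain 8 or 9. The number of genes called differed between the fits, so a count of members is to be read beside it. The splits hold fewer brains, 13 under 100 CPM and 15 over 300 CPM. For age over both diets the median log2 fold change of the beta members was 0.33 in the former alone and 0.07 in the latter alone. The cause of the changes in the calls was not tested. No log2 fold change of a named member that was called reversed. Of those under other settings 478 kept their side of the threshold, 8 gained and 27 lost a call and 2 moved (Pcdhgc3 and Pcdhgc4 after the one-week KD, -0.0002 and -0.081 in the brains under 100 CPM alone), and of those without a brain 950 kept it, 2 gained and 28 lost it. Counting the length of all exons moved 11 of 17 levels per kb, and scaling by total counts none. Without a filter on low counts edgeR called 10893 of 50709 genes for age over both diets, against 813 of 22079. It called 9 members, but with so many genes called this fit says little about them. In it 15 of 22 beta members had log2 fold changes above 0, against 20 in the main fit.

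Library numbers occur in groups of both ages, but brains of the same number deviated together in only some pairs (r from -0.389 to 0.469 over 6 pairs), so the numbers do not pair the samples. A replicate block on the shared numbers kept only these libraries of each age. For aging (libraries 1, 4 and 7) it called 0 members, where 13 of 20415 genes were called. For age in KD brains (libraries 10, 11 and 14) it called 0 members and 0 of 20181 genes. The log2 fold change there was 0.675 for Pcdhb2 and 0.309 for Pcdhb14. With so few brains and so few genes called, these fits cannot tell whether the members differ.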
